A study of Mus musculus with 23 samples.

Results

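The unfolded protein response genes described here are Hspa5, Hsp90b1, Dnajb9, Dnajc3, Xbp1, Ddit3, Pdia4, Pdia6, Sdf2l1 and Manf, selected by gene symbol in the deposited expression table and matched by gene ID to the deposited counts. All 10 were found among the 67228 gene entries of the count table and were among the 14364 genes with enough counts to be tested. RNA came from marrow-depleted femur and tibia of 23 female mice aged 11 weeks, and the question was how bone gene expression differed early in type 1 diabetes (T1D) with and without SARM1, a pro-neurodegenerative enzyme that consumes NAD. The 4 groups were wild type given saline (WT Control, n = 5), wild type given streptozotocin (WT T1D, n = 6), global Sarm1 knockout given saline (KO Control, n = 6) and global Sarm1 knockout given streptozotocin (KO T1D, n = 6), all of strain C57BL6/N. Streptozotocin, which kills pancreatic beta cells, was injected at 100 mg/kg on consecutive days at 8 weeks of age, 3 weeks before harvest, and once more where blood glucose had not reached the target. The knockout was in every tissue, so no cell type of bone was singled out, and the WT mice of the study came both from heterozygous breeding and from a commercial supplier.

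The unfolded protein response is set off when folding capacity in the endoplasmic reticulum (ER) falls short of the load of secreted protein. Its sensors are IRE1 (Ern1), PERK (Eif2ak3) and ATF6. IRE1 splices Xbp1 mRNA, and spliced XBP1 and cleaved ATF6 turn on chaperones, disulfide isomerases and degradation factors, whereas PERK phosphorylates eIF2α and favours translation of ATF4, which turns on Ddit3 (CHOP). Osteoblasts, which secrete large amounts of type I collagen, and antibody-secreting plasma cells are known for high use of this pathway. Counts per gene cannot tell spliced from unspliced Xbp1 mRNA, and in bulk bone fewer cells of a type and less RNA per cell cannot be told apart.

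Many target genes of ATF6 carry the ER stress response element (ERSE), CCAAT and CCACG with 9 bases between them, near their start. The RefSeq promoter windows of GRCm38.p6, each covering 250 bases before the start and 50 after it, held a window for 9 of the 10 genes (all but Manf). An exact ERSE on either strand was present in 4 of these 9, Hspa5, Hsp90b1, Dnajc3 and Pdia6, with 5 matches in all. Of all 32851 promoter windows, 39 (0.119%) held one. The 5 matches are printed because they are the only sequence feature searched for that these genes shared, with the fixed bases CCAAT and CCACG in capitals and each match read along its own strand.
Hspa5, chr2:34772025-34772043, plus strand, beginning 65 bases before the start: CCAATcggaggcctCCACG
Hsp90b1, chr10:86705638-86705656, minus strand, beginning 212 bases before the start: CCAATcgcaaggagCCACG
Hsp90b1, chr10:86705533-86705551, plus strand, opposite to the gene: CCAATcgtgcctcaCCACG
Dnajc3, chr14:118937827-118937845, plus strand, beginning 105 bases before the start: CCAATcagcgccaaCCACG
Pdia6, chr12:17266491-17266509, plus strand, beginning 98 bases before the start: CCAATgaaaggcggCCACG

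The Hspa5 window is shown in full for the 250 bases before the start (chr2:34771840-34772089, plus strand), again with the fixed bases of the ERSE in capitals.
Hspa5 promoter: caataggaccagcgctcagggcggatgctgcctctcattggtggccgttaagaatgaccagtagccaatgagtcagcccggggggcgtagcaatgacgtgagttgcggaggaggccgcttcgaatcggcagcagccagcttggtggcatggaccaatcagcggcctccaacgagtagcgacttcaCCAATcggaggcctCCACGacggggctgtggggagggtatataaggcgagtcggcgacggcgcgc
None of the 9 windows held an exact ERSE-II (ATTGG, 1 base, CCACG), an exact XBP1 element (TGACGTGG) or an exact amino acid response element (TGATG, 1 base, AA), each searched on both strands. These were present in 0.0365%, 0.676% and 3.97% of all windows. The windows of Xbp1, Ddit3, Dnajb9, Pdia4 and Sdf2l1 therefore held none of the 4 motifs as spelled here, which says nothing about related or more distant sequences.

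Libraries held 16938101 to 20135592 counts each, and the 10 genes had between 160 (Ddit3) and 9847 (Hsp90b1) counts in a library. Sarm1 itself had 5 to 32 counts per library and did not separate the genotypes: Control mice had a mean of 1.17 ± 0.40 (WT, n = 5) and 0.80 ± 0.50 (labelled KO, n = 6), and T1D mice one of 0.69 ± 0.29 (WT, n = 6) and 1.19 ± 0.26 (labelled KO, n = 6), as mean and SD of CPM, counts scaled to a common library size. The genotype is therefore given as labelled throughout. Other genes did differ between the labelled genotypes, with a lowest adjusted p of 2.0e-15 in Control and 1.2e-16 in T1D mice (edgeR quasi-likelihood test). By qPCR, the paper found Sarm1 significantly lower in knockout than in WT bone. The libraries of the WT T1D mice A3905 and A3906 stood apart from all the others. Of the 7 osteoblast markers, which should mark bone, the summed level was 1672 and 1333 TPM (a level scaled to transcript length and to the whole transcript pool) in these mice against 30520 to 69769 TPM in the other 21, and Bglap (osteocalcin) was 335 and 237 TPM against at least 17030 TPM. The 7 erythroid markers summed to 333166 and 330874 TPM in them against 162830 to 281702 TPM in the others. No marker of the 57 listed was at 0 TPM in any mouse. The comparisons of the 10 genes that follow, the correlations and the counts by pathway role with T1D in WT are also given without these 2 mice.

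Per unit of transcript length, Hspa5 and Hsp90b1 were the most abundant of the 10, with medians over the 23 mice of 212 and 204 TPM. Xbp1 (123 TPM), Pdia6 (93.3 TPM), Manf (69.7 TPM) and Pdia4 (48.2 TPM) followed. Sdf2l1, Dnajb9, Dnajc3 and Ddit3 had medians of 27.9, 27.4, 21.8 and 19.5 TPM. The ranges of neighbours in this order overlapped throughout, for example 118 to 285 TPM for Hspa5 and 95.5 to 281 TPM for Hsp90b1.

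With T1D in WT mice, none of the 10 genes passed an adjusted p of 0.05 (edgeR quasi-likelihood test), beside 2.33% of all genes tested. DESeq2 also called 0 of 10, beside 6.98% of all genes. A term for the run of mouse IDs was also added, chosen after seeing the data. Its levels were A1757 to A1787, A3670 to A3676, A3679 to A3683, and A3766 to A3909, the last with a gap from A3767 to A3903. The cut after A3676 falls where the KO-labelled mice part in these genes, so this fit is no separate evidence. With the term, edgeR called 2 lower, Dnajc3 (-0.26, adjusted p = 0.0494) and Pdia4 (-0.43, adjusted p = 0.0483), beside 6.93% of all genes. All but Ddit3 (9 genes) had a fitted level below control, by 0.13 to 0.32 on the log2 scale, whereas Ddit3 was 0.43 higher. The median over the 10 was -0.20, and over all genes -0.011, with 51.9% of all genes below 0. At an unadjusted p under 0.05 there were 5 lower genes (Hsp90b1, Dnajc3, Xbp1, Pdia4 and Pdia6) and 1 higher (Ddit3), beside 11.2% and 11% of all genes. Adjusted p ranged from 0.106 (Dnajc3) to 0.520 (Sdf2l1). None of the 10 genes separated the groups completely with T1D in either genotype, or between genotypes within Control or T1D mice. Over all tested genes such separation occurred downward and upward in 0.877% and 1.32% with T1D in WT, 0.167% and 0.0905% with T1D in KO-labelled mice, 0.292% and 0.32% between genotypes in Control mice, and 0.411% and 0.453% between genotypes in T1D mice.

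**Figure D1:**
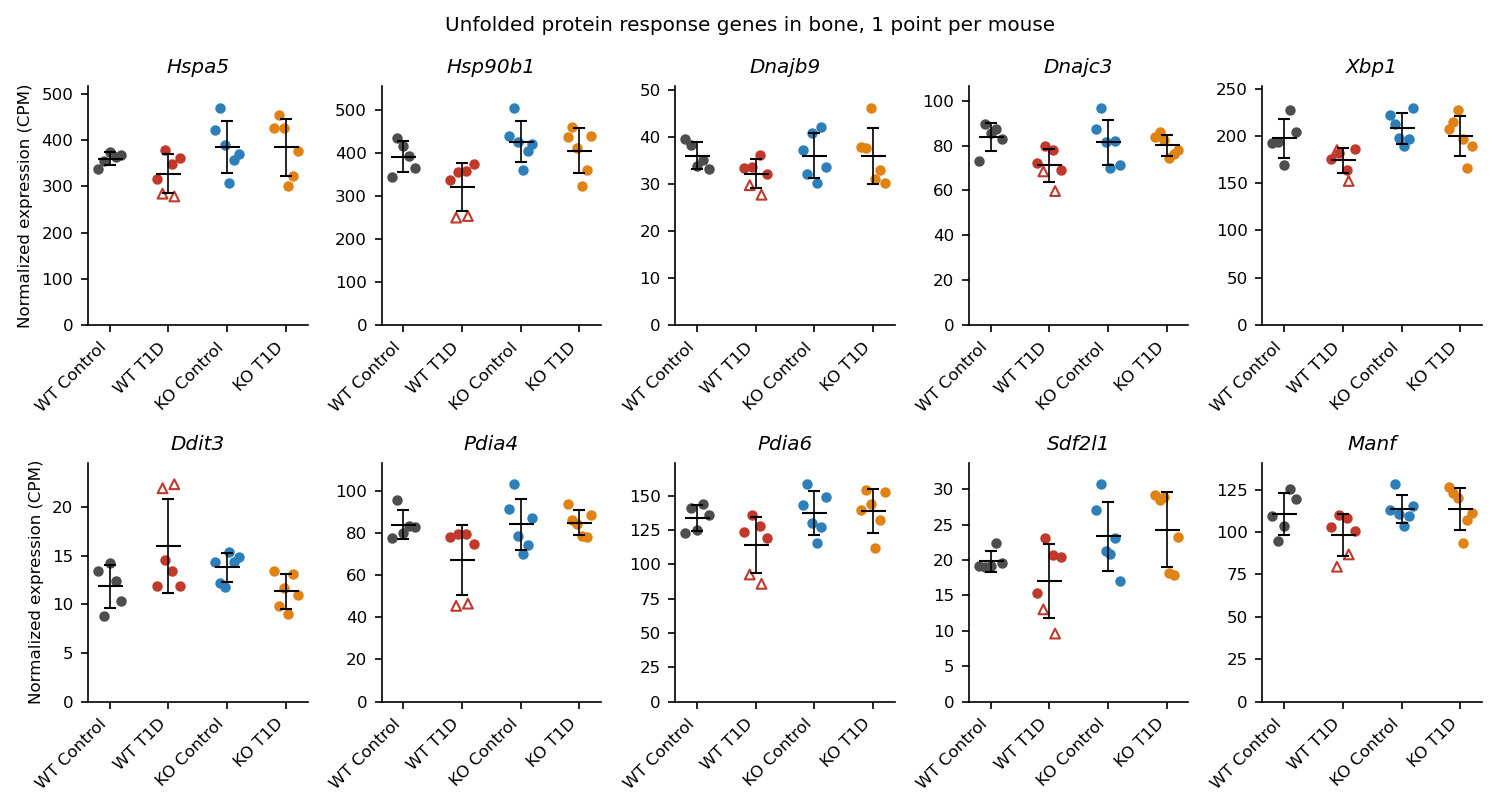
Normalized expression (CPM) of the 10 genes, 1 point per mouse in each of the 4 groups, with the group mean and SD as the line and bar; open triangles are the WT T1D mice A3905 and A3906. The triangles are the lowest WT T1D points for 8 genes and the highest for Ddit3 (21.9 and 22.3 CPM).

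Hspa5 encodes BiP, the main ER chaperone and the brake on all 3 sensors. Its level in WT Control was 337, 355, 374, 363 and 367.9 CPM. WT T1D ranged from 278 to 379 CPM (median 332), with 3 of 6 mice under the WT Control range and 1 over it. KO Control ranged from 307 to 470.1 CPM (median 379), and KO T1D from 301 to 455 CPM (median 401). The groups overlapped in every comparison, and the spread was widest among the KO-labelled mice (SD 56.1 and 62.1 CPM, against 14.05 in WT Control and 41.7 in WT T1D). With T1D, WT mice had a log2 difference of -0.13 ± 0.11 (SE, adjusted p = 0.510), with a 95% interval from -0.37 to 0.10.

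Hsp90b1 encodes GRP94, the ER member of the HSP90 family. WT Control mice had 345, 434, 416, 393 and 366 CPM. In WT T1D the lowest, median and highest were 249.8, 347 and 375 CPM, and 3 of 6 lay below all controls. The log2 difference was -0.28 ± 0.11 (SE, adjusted p = 0.153). KO Control (360 to 505 CPM, median 423) and KO T1D (323 to 461 CPM, median 425) overlapped almost fully.

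Among the isomerases, which form and rearrange disulfide bonds, Pdia4 had the largest WT difference of the 9 genes other than Ddit3. WT Control had 77.5, 95.4, 80.1, 83.2 and 82.8 CPM. The lowest, median and highest of WT T1D were 45.4, 76.2 and 79.7 CPM, and the 2 lowest, A3905 and A3906 (45.4 and 46.4 CPM), were well below the other 4 (74.5 to 79.7 CPM). KO Control ranged from 70.1 to 103 CPM (median 83.0) and KO T1D from 78.1 to 93.8 CPM (median 85.3). The WT log2 difference with T1D was -0.32 ± 0.13 (SE, adjusted p = 0.164). Pdia6 had the same arrangement, with 123 to 144 CPM in WT Control, 92.6 and 85.8 CPM in A3905 and A3906, and 119 to 136 CPM in the other 4 WT T1D mice. In WT it had a log2 difference of -0.23 ± 0.11 with T1D (SE, adjusted p = 0.223), and KO Control (116 to 158 CPM, median 137) and KO T1D (112 to 154 CPM, median 142) both contained the WT Control range.

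Dnajb9 (ERdj4) and Dnajc3 (P58IPK) are J-domain co-chaperones of BiP. Dnajc3 had the lowest adjusted p of the 10 in WT, at -0.23 ± 0.083 on the log2 scale (SE, adjusted p = 0.106). Its WT Control values were 73.3, 89.7, 85.5, 87.3 and 83.0 CPM, and WT T1D ran from 59.7 to 79.8 CPM (median 70.7). In all, 4 of 6 WT T1D mice were below every control, the highest such number among the 10 genes. KO Control ran from 69.97 to 96.9 CPM (median 81.9) and KO T1D, the tightest group for this gene (SD 4.66 CPM), from 74.5 to 86.0 CPM (median 80.1). Dnajb9 had 33.1 to 39.6 CPM in WT Control and 27.7 to 36.2 CPM in WT T1D, a log2 difference of -0.16 ± 0.11 (SE, adjusted p = 0.378). In KO Control and KO T1D it ran from 30.2 to 42.1 CPM and from 30.3 to 46.2 CPM, wider than in the WT groups.

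Sdf2l1, part of the BiP chaperone complex, had 19.1, 19.0, 19.1, 22.4 and 19.5 CPM in WT Control. WT T1D spread from 9.60 to 23.1 CPM (median 17.9), so that 3 mice lay below and 1 above all controls. Manf, a small ER protein that is also secreted, had 94.4 to 125 CPM in WT Control and 79.5 to 110.3 CPM in WT T1D. The KO groups had 104 to 128 CPM (Control) and 93.4 to 126 CPM (T1D) of Manf, and 16.97 to 30.7 CPM (Control) and 17.8 to 29.2 CPM (T1D) of Sdf2l1. Neither had an unadjusted p under 0.05 with T1D in WT (0.259 for Sdf2l1 and 0.0785 for Manf).

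The transcription factors differed in direction. Xbp1, the factor of the IRE1 arm, had 193, 193, 169.5, 227 and 204 CPM in WT Control and 152 to 186 CPM (median 179) in WT T1D, a log2 difference of -0.18 ± 0.083 (SE, adjusted p = 0.206). It had 189 to 229.8 CPM (median 205) in KO Control and 167 to 227 CPM (median 202) in KO T1D, so WT T1D was the group with the lowest median (179 CPM). The WT T1D range of Xbp1 lay wholly below that of KO Control. This pair of groups differs in both genotype and treatment, and the share of all genes that separate it was not computed. Ddit3, the pro-apoptotic factor downstream of PERK and ATF4, had 13.4, 8.78, 14.2, 12.4 and 10.4 CPM in WT Control. Its lowest, median and highest in WT T1D were 11.8, 13.9 and 22.3 CPM, and the log2 difference was 0.43 ± 0.17 (SE, adjusted p = 0.135). Of the 6 WT T1D mice, 3 were above all controls, among them A3905 and A3906 at 21.9 and 22.3 CPM, and the other 4 (11.8 to 14.5 CPM) overlapped the controls. A3906 had the lowest Xbp1 level of its group (152 CPM), whereas A3905 (185 CPM) was within the range of the other 4.

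Without A3905 and A3906, the WT difference was closer to 0 for every one of the 10 genes. The median over the 10 went from -0.20 to -0.085, no gene had an unadjusted p under 0.05, and 0 of 14317 genes were called in all. Ddit3 was then 0.12 ± 0.14 higher (SE, adjusted p = 0.797), Pdia4 0.11 lower, and Sdf2l1 was 0.0026 above control. Dnajc3 (-0.16) and Xbp1 (-0.16) moved least. Both mice were the lowest of WT T1D in 8 of the 10 genes and the highest in 1, where over all tested genes they were the lowest in 24.5% and the highest in 21.9%. The part of the low osteoblast and high erythroid marker levels of these mice in the gene differences was not tested.

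**Figure D2:**
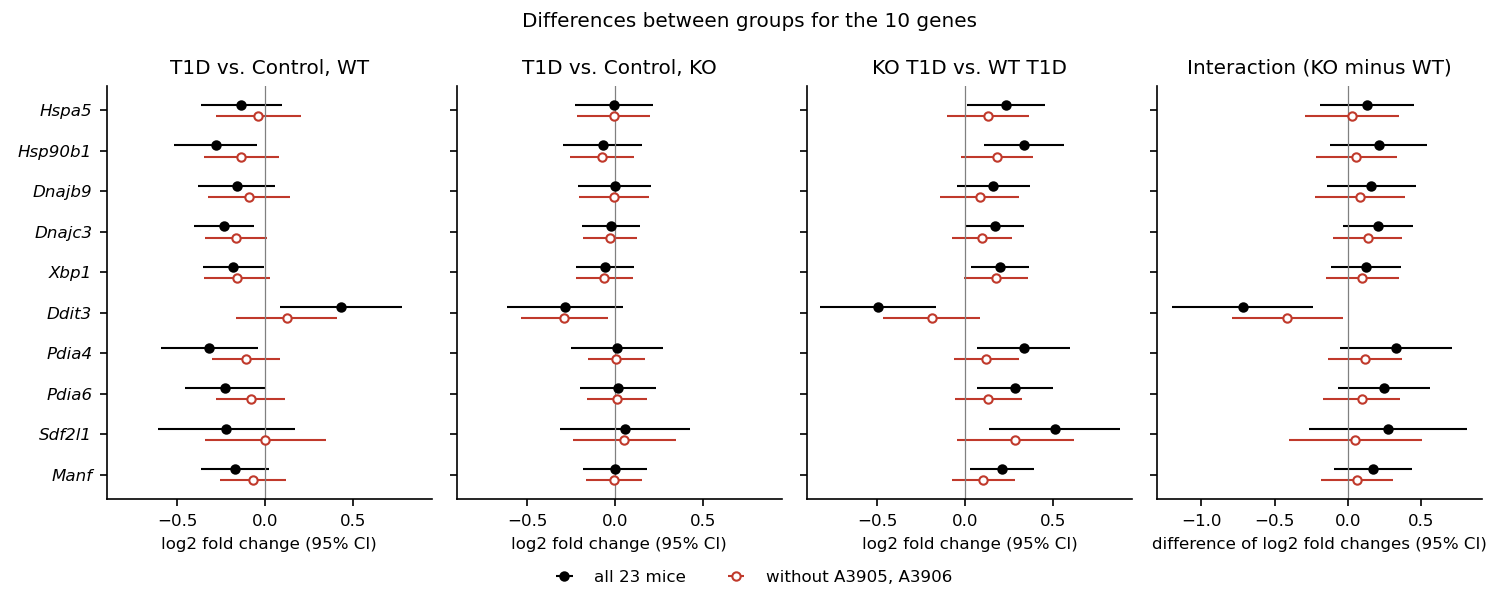
Log2 fold change (or difference of log2 fold changes) with its 95% interval for the 10 genes in 4 comparisons, from all 23 mice (black) and without A3905 and A3906 (red, open). In WT the Ddit3 difference goes from 0.43 to 0.12 and the Pdia4 difference from -0.32 to -0.11 without these 2 mice.

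In KO-labelled mice, T1D was accompanied by smaller fitted differences. None of the 10 genes was called by edgeR or by DESeq2, beside 0% of all genes in each, and none had an unadjusted p under 0.05, beside 3.15% of all genes by edgeR. The 10 differences ran from -0.28 (Ddit3) to 0.057 (Sdf2l1) with a median of -0.0026. For Hspa5 the difference was -0.0035 with a 95% interval from -0.23 to 0.22, and for Pdia4 it was 0.013 with an interval from -0.25 to 0.28. The value fitted in WT lay inside the KO interval for 6 of the 10 genes, among them Hspa5, and outside it for the other 4, Dnajc3, Pdia4, Pdia6 and Ddit3. Neither reading is a test of the difference between the genotypes. Ddit3 had 14.3, 12.2, 11.8, 15.4, 14.3 and 14.8 CPM in KO Control and 13.4, 9.82, 11.7, 8.98, 13.1 and 10.9 CPM in KO T1D, with 4 of 6 KO T1D mice below every KO Control mouse (unadjusted p = 0.0904). Without A3905 and A3906, which are in neither group but enter the shared estimate of spread, that difference was -0.29 with an unadjusted p of 0.0246 and an adjusted p of 0.995. In that fit the KO difference was larger in size than the WT one for Ddit3 (0.12 in WT) and for Sdf2l1 (0.053 in KO, 0.0026 in WT).

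The test of the difference between the T1D effects in the 2 genotypes called 0 of the 10 genes and 0% of all genes, by edgeR and by DESeq2. Ddit3 had the largest difference of effects among the 10, -0.72 ± 0.23 (SE, unadjusted p = 0.00533, adjusted p = 0.479), from fitted differences of 0.43 in WT and -0.28 in KO-labelled mice. Its unadjusted p was the only one of the 10 under 0.05, beside 10.2% of all genes. The other 9 differences of effects were between 0.12 (Xbp1) and 0.33 (Pdia4), and 51% of all genes had one above 0. Without A3905 and A3906 the Ddit3 value was -0.41 ± 0.18 (SE, adjusted p = 0.927) and the other 9 lay between 0.028 and 0.14.

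Comparing genotypes within Control mice, 0 of the 10 genes were called, beside 0.0278% of all genes. DESeq2 called 0 of them as well, and no unadjusted p was under 0.05 in either test, beside 4.8% of all genes by edgeR. The differences ran from -0.039 (Dnajc3) to 0.23 (Sdf2l1), and the groups overlapped for every gene. Neither group holds A3905 or A3906, and with those left out of the shared fit again 0 were called and the differences ran from -0.038 (Dnajc3) to 0.24 (Sdf2l1).

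Within T1D mice, KO-labelled minus WT, 9 of the 10 genes had a higher fitted level in KO T1D, beside 51.3% of all genes, and Ddit3 a lower one. None was called at an adjusted p of 0.05, beside 0.0905% of all genes by edgeR and 1.66% by DESeq2, which also called 0 of the 10. With mice A36 to A39 only, in which A3905 and A3906 are 2 of 3 WT T1D mice, edgeR called 6 (Hsp90b1, Pdia4, Pdia6, Sdf2l1 and Manf higher and Ddit3 lower), beside 10.8% of all genes. With the run of mouse IDs as a term 0 were called, beside 0.0209% of all genes. At an unadjusted p under 0.05 there were 8 higher genes, all but Dnajb9, and Ddit3 lower, beside 8.44% and 8.65% of all genes. This comparison has the WT T1D mice in common with the T1D comparison in WT and is no separate evidence. Sdf2l1 differed most, by 0.51 ± 0.18 (SE, adjusted p = 0.188). Its KO T1D values were 29.2, 28.5, 28.8, 18.2, 17.8 and 23.2 CPM, and 4 of these 6 were above every WT T1D mouse. Hsp90b1 (0.33), Pdia4 (0.33) and Pdia6 (0.28) followed, and for Xbp1 (0.20) 5 of the 6 KO T1D mice were above every WT T1D mouse. Ddit3 was -0.50 ± 0.16 (SE, adjusted p = 0.165). Without A3905 and A3906 the differences were 0.29 for Sdf2l1, 0.18 for Hsp90b1 and -0.19 for Ddit3, and no unadjusted p was under 0.05.

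The values depended on the scale. On log2(TPM + 1), which is relative to the whole transcript pool, the median over all genes was itself -0.24 with T1D in WT and 0.17 in KO T1D against WT T1D, and the members' medians were -0.48 and 0.42. On that scale limma called 8 of the 10 genes in WT (all but Ddit3 and Sdf2l1), beside 35.9% of all genes, and 5 in the diabetic comparison of genotypes, beside 8.12%. Relative to the median over all genes, the members' median in WT was at -0.24 on this scale and at -0.19 in the counts. Hemoglobin genes held 12.3% to 21.4% of counts in WT T1D, 9.73% to 13.9% in WT Control, 8.01% to 15.8% in KO Control and 10.5% to 14.05% in KO T1D, so RNA of blood cells was present in every library. With the 4 WT mice of the A17 ID series left out, edgeR called Hsp90b1, Dnajc3, Pdia4 and Pdia6 lower and Ddit3 higher with T1D in WT, beside 15.5% of all genes. A3905 and A3906 are then 2 of only 3 WT T1D mice.

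**Figure D3:**
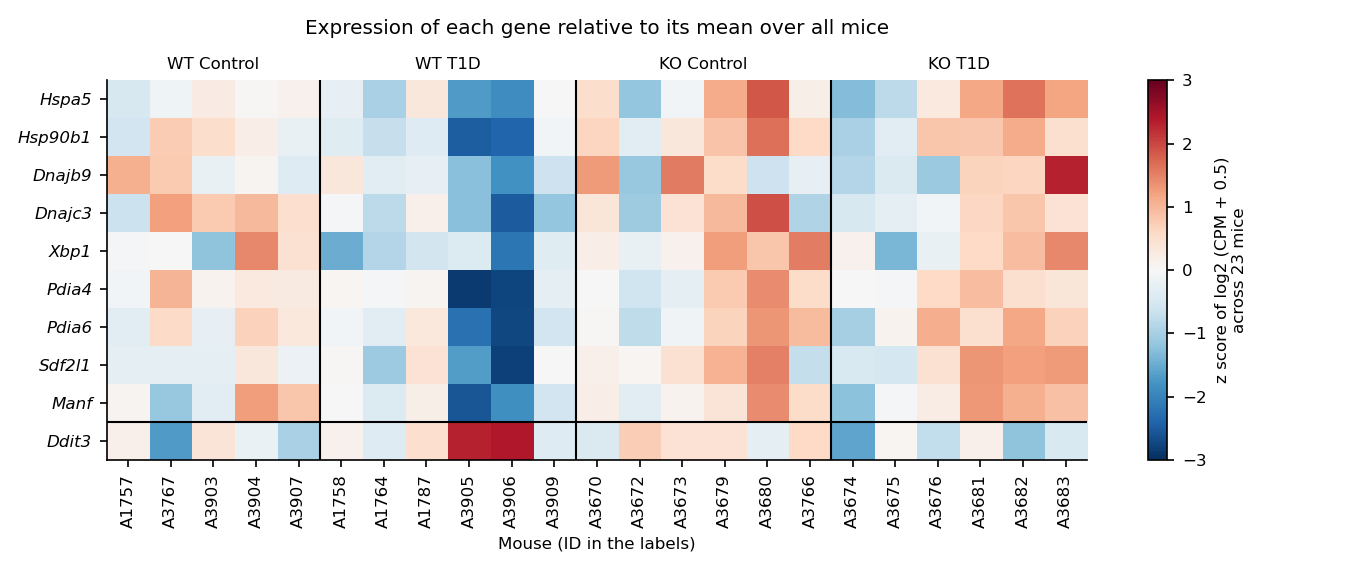
Z score of log2(CPM + 0.5) of each gene over the 23 mice, with mice in columns by group and the 10 genes in rows, Ddit3 last. A3905 and A3906 are blue for the 9 upper genes (mean z scores of -1.83 and -2.32) and red for Ddit3 (2.32 and 2.40).

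The 9 genes other than Ddit3 varied together from mouse to mouse. All 36 pairs among them had a positive correlation over the 23 mice (Pearson r from 0.46 to 0.92, median 0.78), and Ddit3 was negatively correlated with all 9 (r from -0.74 to -0.36). These are descriptions, since all values of a mouse come from 1 library. With group means removed the 36 pairs were again positive, with a median of 0.69. In the 21 other mice the median over the 36 pairs was 0.56, all 36 were positive, and Ddit3 was negatively correlated with 6 of 9 (r from -0.28 to 0.22). Pdia4 and Pdia6 formed the closest pair (r = 0.92), and Dnajb9 was the least tied to the others (r = 0.56 with their mean z score).

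Outside the 10, the genes whose level most resembled their mean z score over the 23 mice were Hyou1 (r = 0.90), Ass1 (0.88), Trim30a (0.87), Creld2 (0.87), Cxcl9 (0.86), Hltf (0.85), Trappc2 (0.84), Pdia3 (0.84), Magt1 (0.84) and Cd28 (0.84). Over the 21 mice without A3905 and A3906 these 10 correlations were lower, from 0.65 (Magt1) to 0.79 (Hyou1). Hyou1, a large ER chaperone that exchanges nucleotide on BiP, Creld2, an ER stress-inducible protein, and Pdia3, the isomerase that works with calnexin and calreticulin, are also in the list of pathway genes. Ass1 is an enzyme of arginine synthesis, Cxcl9 an interferon-induced chemokine and Cd28 a T cell co-receptor.

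A list of 70 further genes of the pathway was examined by role, and all 70 were tested. With T1D in WT, 2 of 70 were called, Creb3l2 lower and Eif2ak1 higher, beside 2.33% of all genes, and DESeq2 called 4 of 70 (these 2 with Ppp1r15a and Asns), beside 6.98%. The share of the list called was thus near that of all genes. Of the 70, 50 were below control, beside 51.9% of all genes, and 20 were above, with a median of -0.11. An unadjusted p under 0.05 was reached by 20 of 70 in the lower direction, beside 11.2% of all genes, and by 8 of 70 in the higher direction, beside 11%, which is near the share of all genes. With the pair left out, 0 were called, 47 were below control and the median was -0.050. Both mice were the lowest of WT T1D in 36 of the 70 and the highest in 11, beside 24.5% and 21.9% of all genes. In KO-labelled mice 0 were called by either tool, 3 of 70 had an unadjusted p under 0.05 (3.15% of all genes), and 30 of 70 were below control with a median of 0.031. For the difference of effects 0 were called by either tool, with 10 of 70 unadjusted p-values under 0.05 (10.2% of all genes).

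Among sensors and membrane-bound factors, Creb3l2 (BBF2H7), an ATF6-like factor needed for collagen secretion in cartilage, fell from 61.4 ± 7.4 CPM (SD, n = 5) to 41.9 ± 12.1 CPM (SD, n = 6), a log2 change of -0.55 ± 0.15 (SE, adjusted p = 0.0499). Its levels in A3905 and A3906 were 29.9 and 25.6 CPM, against 41.9 to 54.9 CPM in the other 4, and without these 2 mice the value was -0.33 (adjusted p = 0.304). Creb3l1 (OASIS), the related factor of osteoblasts, was 31.2 and 31.6 CPM in the same mice against 134 to 182 CPM in the other 4, with a group difference of -0.74 (adjusted p = 0.207), and of -0.29 without the pair. Atf6b was -0.22 (adjusted p = 0.197), and -0.082 without it. The sensors Ern1 (-0.14), Eif2ak3 (-0.13) and Atf6 (0.063) did not pass the test. In this class 6 of 8 genes were below control with a median of -0.14, beside 51.9% of all genes. Without the pair 5 of 8 were below control, with a median of -0.10.

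With T1D in WT, 51.9% of all genes were below control. The chaperone class had 8 of 11 genes below control, led by Creld2 (-0.36), Hyou1 (-0.26) and Hspa13 (-0.19), with 0 called. All 9 disulfide isomerases and ER oxidases were below control, none of them called, with Pdia5 at -0.42, Txndc5 at -0.26 and Pdia3 at -0.24. Of the 13 genes of ER-associated degradation, which returns misfolded protein to the cytosol, 12 were below control and 0 called. Selenos (-0.35), Derl2 (-0.29) and Edem3 (-0.23) had the largest differences. The translocon class, which passes new proteins into the ER, had 10 of 11 below control and 0 called, with Ssr3 at -0.28 and Sec61a1 at -0.24, whereas Sec61g was 0.39 higher. Without A3905 and A3906 the counts below control were 7 of 11 chaperones, 8 of 9 isomerases and oxidases, 11 of 13 degradation genes and 10 of 11 translocon genes. The class medians went from -0.085 to -0.042, from -0.19 to -0.0998, from -0.20 to -0.049 and from -0.13 to -0.074, in that order. Both mice were the lowest of WT T1D in 7, 7, 9 and 6 genes of these classes, beside 24.5% of all genes.

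The integrated stress response class, the ATF4 side of the pathway, had 11 of 14 genes above control with a median of 0.20. Of all genes, 51.9% were below control. By edgeR 0 of the class were called, beside 2.33% of all genes, and DESeq2 called Ppp1r15a and Asns, beside 6.98%. Both A3905 and A3906 were the highest of WT T1D in 6 of the 14, beside 21.9% of all genes. Without them the median was 0.085 and 4 of 14 were below control. Trib3, an inhibitor of ATF4 and CHOP activity, was 1.60 ± 0.63 higher (SE, adjusted p = 0.138). Its level was 7.98 and 14.5 CPM in A3905 and A3906 and at most 1.66 CPM in the other 4 WT T1D mice, and without the pair the difference was -0.47. Asns, which makes asparagine, was 0.53 higher, with 96.3 and 124.5 CPM in the same mice and 50.9 to 64.1 CPM in the other 4, and without the pair it was 0.13. Atf3 (-0.51) was below control, and so was Nupr1 (-0.49), with 36.6 and 31.1 CPM in the pair against 109 to 155 CPM and a difference of -0.088 without them. Of the 4 genes for eIF2α and its other kinases, Eif2ak1 (HRI), the heme-sensing kinase that is abundant in red cell precursors, rose from 241 ± 31 CPM (SD, n = 5) to 323 ± 38 CPM (SD, n = 6), a log2 change of 0.42 ± 0.099 (SE, adjusted p = 0.0418). Leaving out the pair, it was 0.33 (adjusted p = 0.288). Eif2s1 (0.18) and Eif2ak4 (-0.15) did not pass the test. Of these 4 genes, 2 were below control, both with and without the pair.

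**Figure D4:**
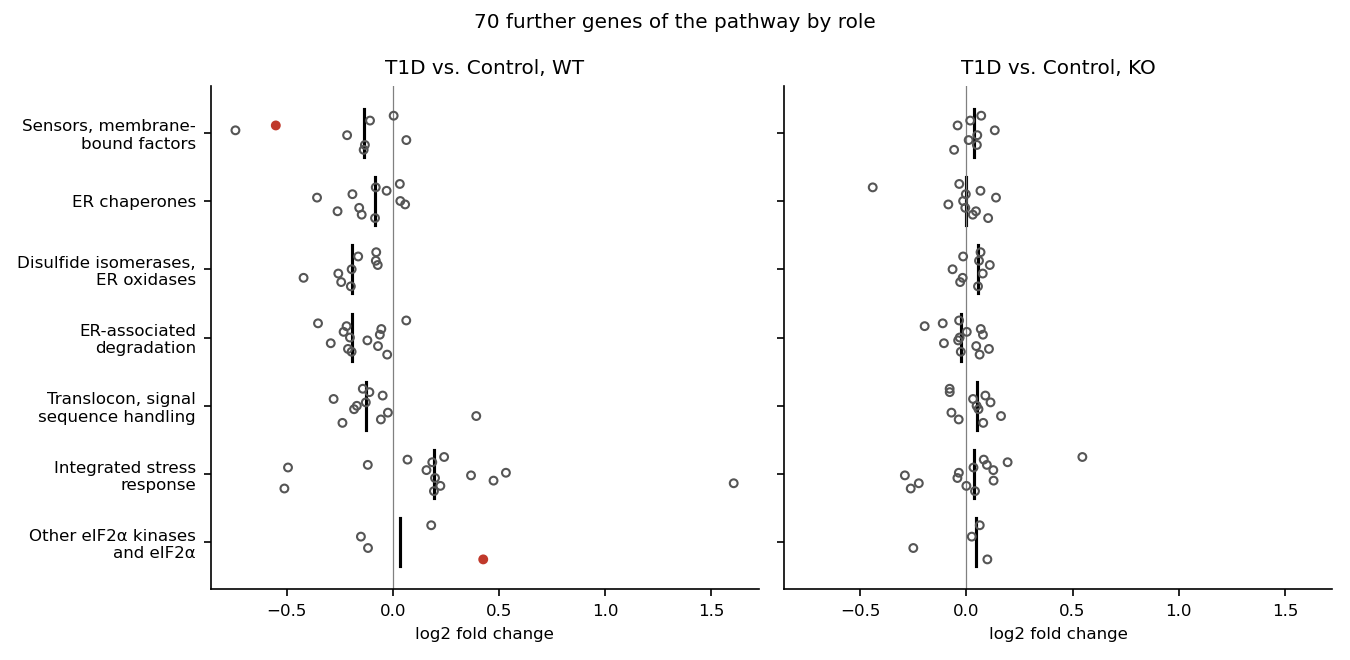
Log2 fold change with T1D of 70 further pathway genes by role, in WT (left) and KO-labelled mice (right), from all 23 mice, with the class median as a black bar and genes at an adjusted p under 0.05 filled in red. In WT the isomerase class lies wholly below 0 and the integrated stress response class has a median of 0.20; Creb3l2 and Eif2ak1 are the 2 filled points.

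How markers of the cell types in bone moved with the 9 genes other than Ddit3 depended on A3905 and A3906. Over 23 mice, the mean z score of the 9 genes correlated with the mean log2(CPM + 0.5) of the osteoblast markers at r = 0.72 and with that of the erythroid markers at r = -0.73. Over the 21 mice without the pair these values were -0.068 and -0.42. The neutrophil markers gave -0.17 over 23 mice and 0.62 over 21. The plasma cell markers went from 0.47 to -0.11, the B cell markers from 0.48 to -0.29 and the osteoclast markers from -0.54 to 0.077. Each of these values thus differed in sign or in size without the pair. The 6 plasma cell markers, of which 5 were tested, summed to 83.9 to 168 TPM in WT T1D and 184 to 249 TPM in KO T1D. Their sum was 106 to 232 TPM in WT Control and 158 to 202 TPM in KO Control. The summed plasma cell TPM thus did not overlap between WT T1D and KO T1D. Most of the sum was Jchain, which alone was separated in TPM, at 50.15 to 124 TPM in WT T1D and 137 to 193 TPM in KO T1D. In CPM Jchain overlapped, at 85.6 to 224 CPM in WT T1D and 196 to 270 CPM in KO T1D. The share of all genes that separate these groups in TPM was not computed. Every other listed plasma cell marker overlapped between these groups, and Sdc1 had the higher mean in WT T1D (11.8 against 11.4 TPM). On the count scale, however, the mean log2(CPM + 0.5) of the 5 tested plasma cell markers overlapped, at 4.16 to 4.80 in WT T1D and 4.63 to 5.10 in KO T1D. In WT, the osteoblast sum ranged from 1333 to 40467 TPM with T1D and from 30520 to 62810 TPM without, and the erythroid sum from 232691 to 333166 TPM and from 194208 to 245917 TPM. The part of cell composition in the gene differences was not tested.

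**Figure D5:**
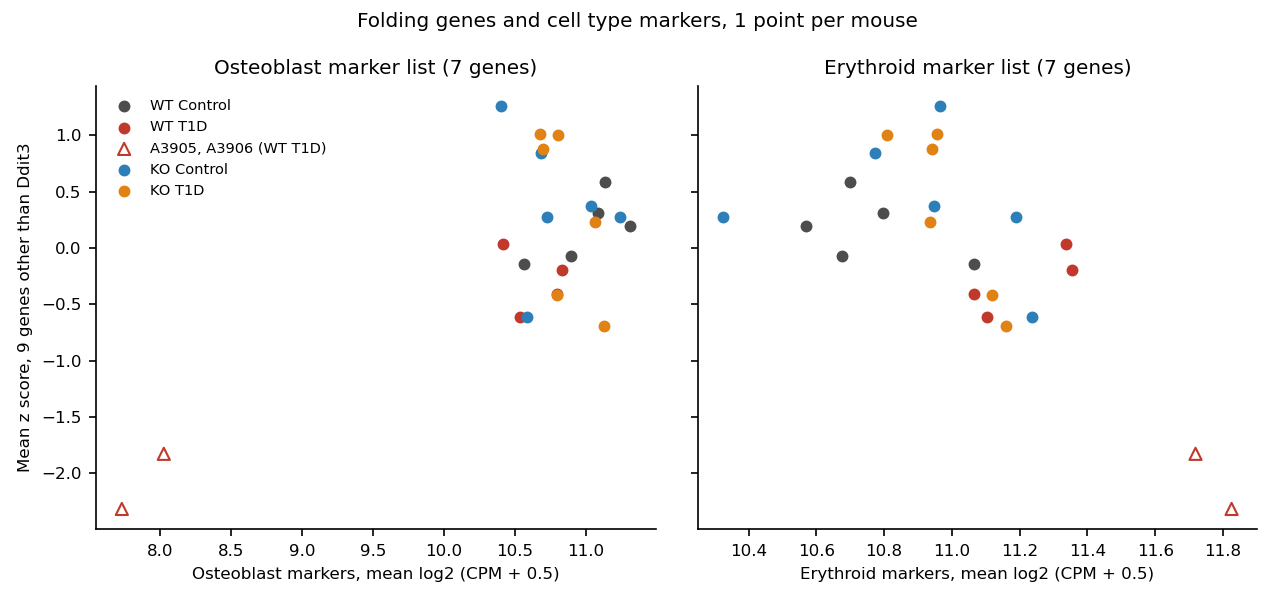
Mean z score of the 9 genes other than Ddit3 against the mean log2(CPM + 0.5) of the 7 osteoblast markers (left) and the 7 erythroid markers (right), 1 point per mouse; open triangles are A3905 and A3906. The triangles lie at the lower left and the lower right, and without them r is -0.068 and -0.42.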

How the data were processed

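PolyA-enriched, strand-marked libraries of 23 mouse bones were sequenced as paired-end reads and, per the submitters' processing notes and the study's methods, mapped to GRCm38.p6 (HISAT, Bowtie2) and quantified with RSEM; tool versions are not given in the sources used here. The authors deposited expected counts per gene, rounded to whole numbers, and TPM values. Counts were tested with edgeR 4.0.16 (R 4.3.3, TMM normalization, 1 coefficient per group, quasi-likelihood F test, all 23 libraries) for genes reaching 10 counts in 5 or more libraries, with Benjamini-Hochberg adjustment over all tested genes. SE is the absolute log2 fold change divided by the square root of F, and 95% intervals use the t distribution with the fitted degrees of freedom. CPM values are on TMM library sizes, and log2 CPM used a pseudocount of 0.5. The script was tested on simulated data. DESeq2 1.42.0 and limma 3.58.1 on log2(TPM + 1) and log2(TPM + 0.1), other scaling and filters, and subsets of mice were alternatives; figures were drawn with matplotlib 3.10.9. All 10 genes are named, with the 3 pathway genes per role that had the largest absolute log2 fold change with T1D in WT, every pathway gene called, and the 10 genes most correlated with the members; other genes named were chosen after their values were seen. Members, lists and the 2 mice left out were chosen with earlier results of these data known. Groups and mouse IDs are from the sample titles; each library is 1 mouse, so p-values measure the spread between mice. The 55 pairs of libraries within groups were compared and each exceeded sampling noise, at a chi-square of 10.9 to 184 per gene. Depth limits mainly Ddit3 and Sdf2l1, which had the fewest counts.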

Additional observations from a re-analysis of the deposited data

Results flagged for a closer look

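Of 40 sets of values (10 genes in 4 groups), 1 had a mouse far from the rest of its group. Sdf2l1 was 22.4 CPM in the WT Control mouse A3904, against 19.0 to 19.5 CPM in the other 4, a gap of 0.836 of the range of the group on the log2 scale. Chance alone takes about 1 in 20 groups past the limit used, and this gap lies above that limit.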

How the results depend on the processing

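The count of the 10 genes called was 0 in all 5 comparisons under DESeq2, DESeq-style size factors, hemoglobin genes left out, no filter on low counts and without A3905 and A3906, and with each mouse left out in turn (0 to 0 for each comparison). With T1D in WT the count was 8 with limma on log2(TPM + 1), beside 35.9% of all genes. On log2(TPM + 0.1) it was 8, beside 36%, and with mice A36 to A39 only it was 5, beside 15.5%. With the run of mouse IDs as a term, an alternative chosen after seeing the data, it was 2 (Dnajc3 and Pdia4), beside 6.93%. In KO T1D against WT T1D it was 5, 5 and 6 under the first 3 of these (8.12%, 8.25% and 10.8% of all genes). With the ID term it was 0 in the 4 comparisons other than T1D in WT; the genotype comparisons then rest on A3766, the 1 KO mouse that shares an ID run with WT mice. The TPM scale moved the median of all genes, and A36 to A39 left 3 WT T1D mice. The cause of the changed counts was not tested. Differences near 0 changed sign. With T1D in WT, Sdf2l1 was 0.0026 without A3905 and A3906. With T1D in KO-labelled mice, Manf was -0.0026 with DESeq2, -0.0025 with DESeq-style size factors, -0.0036 without hemoglobin genes, -0.0031 without a filter, -0.048 and -0.049 on the 2 TPM scales, -0.0055 with A36 to A39, -0.0037 without A3905 and A3906 and -0.018 with the ID term; Pdia4 was -0.024 and -0.024 and Pdia6 -0.029 and -0.029 on the TPM scales, and Sdf2l1 was -0.078 with the ID term. In KO Control against WT Control, Dnajb9 was -0.0014 with DESeq2, -0.0013 with DESeq-style size factors and -0.045 and -0.046 on the TPM scales, Pdia4 was -0.044 and -0.045 there and -0.015 with A36 to A39, and Pdia6 was -0.0075 and -0.0077 on the TPM scales. With the ID term, Dnajb9 was -0.054 and Sdf2l1 -0.17 in that comparison, and Dnajc3 was -0.043 in KO T1D against WT T1D. With 1 mouse left out at a time, the differences that changed sign ranged, with T1D in KO-labelled mice, from -0.067 to 0.060 (Hspa5), -0.086 to 0.048 (Dnajb9), -0.071 to 0.030 (Dnajc3), -0.040 to 0.079 (Pdia4), -0.035 to 0.066 (Pdia6), -0.024 to 0.15 (Sdf2l1) and -0.032 to 0.044 (Manf), and in Control mice between genotypes from -0.049 to 0.041 (Dnajb9), -0.061 to 0.056 (Pdia4), -0.0056 to 0.078 (Pdia6) and -0.012 to 0.082 (Manf). Creb3l2 was called in 12 of 32 alternatives (-0.86 to -0.33) and Eif2ak1 in 16 of 32 (0.13 to 0.55). No paired analysis was possible because the labels give mouse IDs and no replicate numbers shared between groups.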

Other observations

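Among the KO-labelled mice, the mean z score of the 9 genes other than Ddit3 separated by the run of mouse IDs rather than by treatment, a pattern noticed in the data. The 5 mice A3679 to A3683 had mean z scores of 0.84 to 1.26 and Hspa5 levels of 422 to 470.1 CPM, and the 6 mice A3670 to A3676 had -0.69 to 0.38 and 301 to 389 CPM. Both runs held Control and T1D mice. The cut between the runs falls where these genes part, and the share of all genes that separate the runs was not computed. A3766 was at 0.27 and 369.8 CPM. The labels do not say what an ID run stands for.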
